A study of Mus musculus with 20 samples.

Results

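The type I interferon-stimulated genes followed here in liver were Ifit1, Ifit2, Ifit3, Isg15, Rsad2, Oasl2, Oas1a, Irf7 and Usp18. They were taken by gene symbol from a table of raw counts with 48440 genes in 20 mouse livers, in which each symbol named 1 row, and all 9 members were among the 16071 genes that had enough counts to be tested. The livers came from wild-type C57BL/6 female mice (C57BL/6J in the study's methods) of 8 weeks, killed at the end of week 5, with 5 mice in each of 4 groups. Mice of the Isotype + CORT group received corticosterone (CORT, the main glucocorticoid of rodents) in the drinking water and an IgG2a isotype control antibody by intraperitoneal injection. The αACBP + CORT group received corticosterone and a monoclonal antibody that neutralizes acyl coenzyme A binding protein (ACBP/DBI). Isotype + Vehicle and αACBP + Vehicle mice received the same antibodies with ethanol vehicle in place of corticosterone. Every mouse was therefore injected with an antibody, and no group without antibody was compared. The comparisons ask how corticosterone and ACBP neutralization, alone and together, go along with the RNA levels of these genes.

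Type I interferons (interferon-α and interferon-β) are secreted when cells sense viral or misplaced nucleic acid. They bind the receptor pair IFNAR1 and IFNAR2, and signalling from them activates the complex ISGF3, with STAT2 and IRF9 among its parts, which enters the nucleus and binds interferon-stimulated response elements in promoters. The genes it induces code for antiviral effectors, for factors that amplify the response and for proteins that end it. Corticosterone acts through the glucocorticoid receptor, which represses many inflammatory genes. In liver, hepatocytes and non-parenchymal cells such as Kupffer cells, the resident macrophages, all respond to interferon.

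Promoter sequences were read to show whether the members share the letters of such an element. RefSeq windows of 300 bases, from 250 before to 50 after a transcription start site on GRCm38.p6, matched 8 of the 9 members by symbol, all but Usp18. The motif searched was GAAANNGAAA on either strand (TTTCNNTTTC when read from the other strand), with overlapping matches allowed. It was present in the windows of 5 of these 8 members, namely Ifit1, Ifit3, Isg15, Rsad2 and Oas1a, and in 3.44% of all 32851 windows of this length. Of the other interferon-stimulated genes listed here, 20 of 49 with a window (40.8%) held it. Of 4 hepatocyte marker genes with a window, 0 held it, and 4 genes are too few to set apart from the share of all windows. Ifit2 with its 2 windows, Oasl2 and Irf7 had no match, which says only that these letters are not in these windows. The 250 bases before the start site are printed 5′ to 3′ on the strand of the gene for the 3 members whose groups did not overlap between CORT and vehicle under isotype, and for Oasl2 and Irf7, which fell with CORT and rose with αACBP but held no match. Capitals mark the motif. The stretches lie at chr19:34583279-34583528 (Ifit3, plus strand), chr4:156200819-156201068 (Isg15, minus strand), chr12:26456453-26456702 (Rsad2, minus strand), chr5:114896684-114896933 (Oasl2, plus strand) and chr7:141266425-141266674 (Irf7, minus strand).
Ifit3: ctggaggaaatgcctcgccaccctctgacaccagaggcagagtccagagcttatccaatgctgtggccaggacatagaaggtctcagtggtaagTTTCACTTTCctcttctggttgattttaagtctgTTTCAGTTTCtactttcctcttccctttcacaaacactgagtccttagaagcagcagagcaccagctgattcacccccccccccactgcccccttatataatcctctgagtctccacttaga
Isg15: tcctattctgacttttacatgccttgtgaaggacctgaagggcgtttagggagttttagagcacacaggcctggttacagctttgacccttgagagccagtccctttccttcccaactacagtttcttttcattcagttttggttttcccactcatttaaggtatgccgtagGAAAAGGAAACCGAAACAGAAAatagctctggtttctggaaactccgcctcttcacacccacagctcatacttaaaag
Rsad2: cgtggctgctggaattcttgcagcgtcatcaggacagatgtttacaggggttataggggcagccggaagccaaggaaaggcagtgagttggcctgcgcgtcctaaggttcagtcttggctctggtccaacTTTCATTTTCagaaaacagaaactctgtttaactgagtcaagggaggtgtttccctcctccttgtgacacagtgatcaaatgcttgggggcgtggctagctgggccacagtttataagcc
Oasl2: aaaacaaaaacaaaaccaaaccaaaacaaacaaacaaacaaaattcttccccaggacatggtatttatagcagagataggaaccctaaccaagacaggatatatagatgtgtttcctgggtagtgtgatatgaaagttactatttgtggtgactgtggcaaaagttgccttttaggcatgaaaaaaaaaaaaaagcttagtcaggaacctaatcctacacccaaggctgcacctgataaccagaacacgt
Irf7: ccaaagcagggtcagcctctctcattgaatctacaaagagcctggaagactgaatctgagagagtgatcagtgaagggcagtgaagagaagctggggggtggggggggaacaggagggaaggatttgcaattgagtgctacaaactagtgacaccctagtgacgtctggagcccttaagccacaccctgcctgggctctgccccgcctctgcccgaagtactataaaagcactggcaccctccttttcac
Ifit3 held 2 separate matches, which began 156 and 122 bases before the start site. In Isg15, 3 matches overlapped and began 78, 72 and 66 bases before it. Rsad2 held a single match at 120 bases. The window of Ifit1 held 2 matches, at 104 and 85 bases, and that of Oas1a 2 overlapping matches, at 20 and 14 bases. A match is a description of the letters and not a measured binding site.

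The deposited values are raw counts of read pairs per gene, with gene totals from 14934926 to 20299999 in the 20 livers. In the shallowest liver a floor of 3 counts corresponds to 0.201 CPM, the counts of a gene scaled to a fixed library size, and it takes only counting error into account. CPM given here were scaled by edgeR's trimmed mean of M values (TMM), and values are means ± SD of n = 5 livers. Livers of the same group had correlations of log2 CPM between 0.820 and 0.940 across genes (40 pairs), and every pair differed by more than counting noise. Each liver is 1 mouse, and no batch is named in the labels. Hepatocyte markers were abundant in each liver, with a sum over 6 genes between 37156 CPM in αACBP + Vehicle replicate 5 and 136246 CPM in Isotype + CORT replicate 1. Among the Isotype + CORT livers, replicate 3 stood high for the members, and results that rest on it are given with and without it. To be called changed, a gene needed a Benjamini-Hochberg adjusted p (over all genes tested) no larger than 0.05 together with a log2 fold change of 1 or more in size, in edgeR's quasi-likelihood test of all 4 groups in 1 model.

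CORT under the isotype antibody went with lower levels of the members. Of the 9, 6 fell, namely Ifit3, Isg15, Usp18, Rsad2, Oasl2 and Irf7, by log2 fold changes between 1.24 and 2.03 in size, and the other 3 had estimates below 0 without being called. Over all genes, 1.43% were called lower in this comparison. The median log2 fold change was -1.48 over the 9 members and 0.00 over all genes tested. For 3 members (Ifit3, Isg15 and Rsad2), every Isotype + CORT liver lay below every Isotype + Vehicle liver, which was the case for 3.02% of all genes. With αACBP in the CORT-treated mice, 3 of the 9 members (Ifit3, Irf7 and Oasl2) rose relative to isotype, against 0.504% of all genes. Here the median was 1.36 over the members and 0.01 over all genes. Both comparisons use the same 5 Isotype + CORT livers, so that a low value in this group lowers the first and raises the second.

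**Figure D1:**
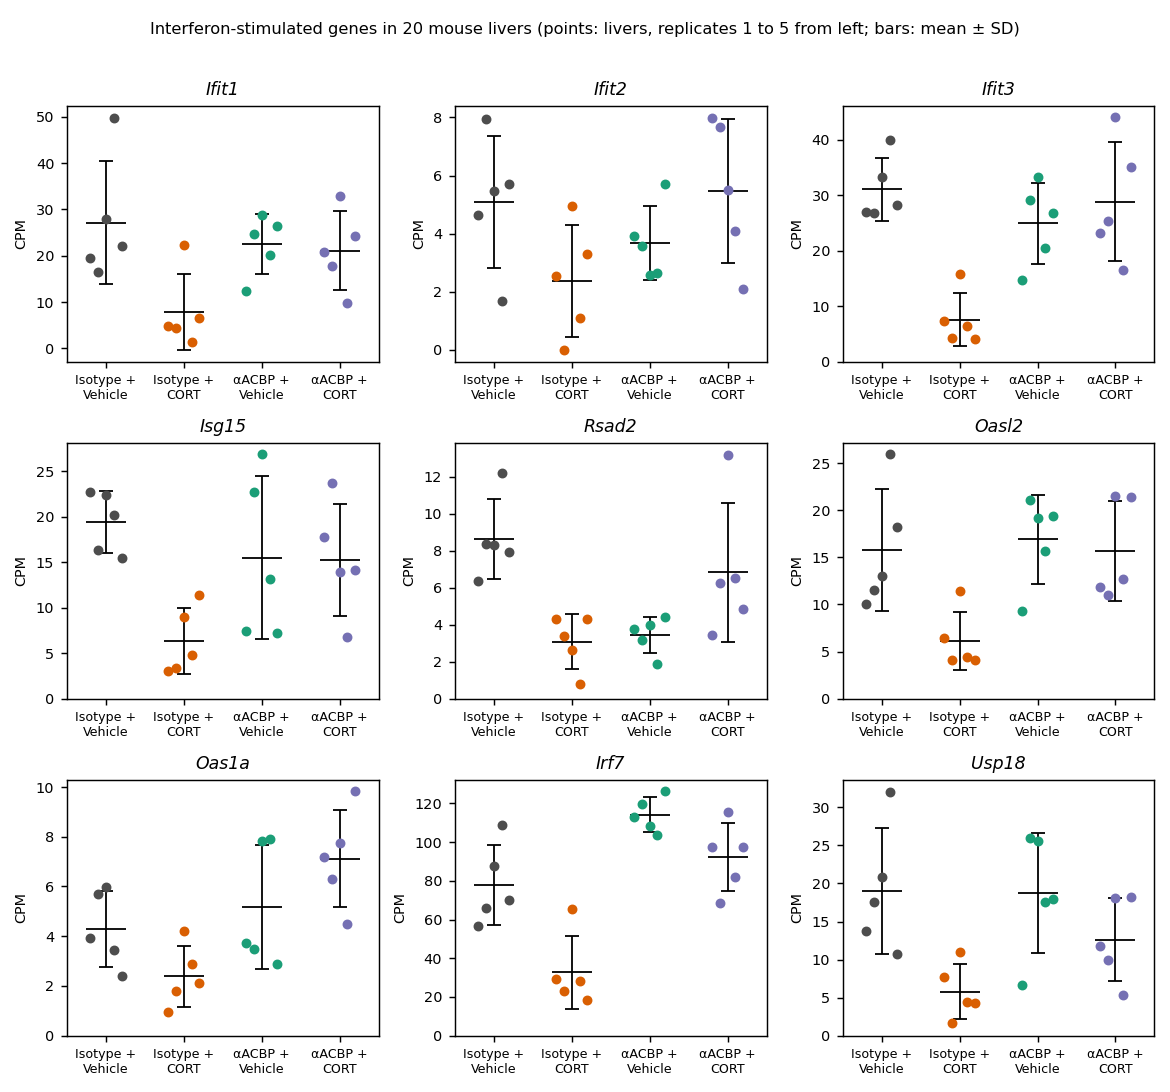
Expression of the 9 members in 20 livers. Each panel plots CPM (y axis, from 0) for the 4 groups (x axis); points are livers and bars show the mean ± SD of 5 livers. In the Ifit3 panel the Isotype + CORT livers lie between 4.00 and 15.8 CPM and the livers of the other groups between 14.7 and 44.0 CPM, and the highest Isotype + CORT liver in most panels is replicate 3.

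Ifit1, Ifit2 and Ifit3 code for interferon-induced proteins with tetratricopeptide repeats, which bind foreign RNA or hinder its translation. They lie together on chromosome 19 of GRCm39, Ifit2 at chr19:34527932-34554524, Ifit3 at chr19:34560899-34566443 and Ifit1 at chr19:34618271-34632174, all on the plus strand.

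Ifit3 had the largest log2 fold changes of the 9 members in both main comparisons by edgeR with all livers, whereas by voom those of Ifit2 (-2.34 and 2.22) and Ifit1 (-2.17 and 1.82) exceeded those of Ifit3 (-2.02 and 1.75), and without Isotype + CORT replicate 3 Ifit1 fell more with CORT (-2.66 against -2.50). Isotype + Vehicle replicates 1 to 5 measured 26.9, 26.9, 33.3, 39.9 and 28.2 CPM, and Isotype + CORT replicates 7.32, 4.30, 15.8, 6.45 and 4.00 CPM. The αACBP + Vehicle livers measured 14.7, 29.2, 33.3, 20.4 and 26.9 CPM and the αACBP + CORT livers 23.2, 25.4, 44.0, 16.5 and 35.1 CPM. Thus the Isotype + CORT livers lay below all livers of Isotype + Vehicle and αACBP + CORT. The gap to αACBP + CORT was small and lay between Isotype + CORT replicate 3 and αACBP + CORT replicate 4. With αACBP + Vehicle they overlapped, since Isotype + CORT replicate 3 lay above αACBP + Vehicle replicate 1. The group means were 31.0 ± 5.61, 7.58 ± 4.81, 24.9 ± 7.36 and 28.9 ± 10.8 CPM in the same order. CORT under isotype lowered Ifit3 by a factor of 4.09 (log2 fold change -2.03, SE 0.32, edgeR adjusted p = 0.000722). αACBP under CORT was associated with a 3.80-fold higher level (log2 1.93, SE 0.32, edgeR adjusted p = 0.00275). Both calls held without any of the livers compared. Of the 100-base words in Ifit3 exons, 16.7% also occur in Ifit3b, and counts of this stretch could be shared between these genes. Ifit3b itself measured 5.17, 1.01, 2.62 and 3.12 CPM on average in the same order of groups and was not called.

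Ifit1 also had its lowest group mean in Isotype + CORT, but its livers spread widely. It measured 19.5, 16.4, 28.0, 49.8 and 22.1 CPM in Isotype + Vehicle and 4.92, 4.35, 22.2, 1.37 and 6.57 CPM in Isotype + CORT. αACBP + CORT livers measured 20.9, 17.7, 33.0, 9.70 and 24.4 CPM, and αACBP + Vehicle livers lay between 12.3 and 28.8 CPM. Only Isotype + CORT replicate 3 reached into the range of Isotype + Vehicle. Ifit1 was not called with CORT under isotype (log2 -1.78, SE 0.53, edgeR adjusted p = 0.0763) or with αACBP under CORT (log2 1.41, SE 0.52, edgeR adjusted p = 0.247). Without Isotype + CORT replicate 3, these values were -2.66 (adjusted p = 0.000549) and 2.29 (adjusted p = 0.00278), and both were called.

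Ifit2 was the member with the lowest level per length and few counts. It ranged from 1.69 to 7.95 CPM in Isotype + Vehicle, from 0 to 4.97 CPM in Isotype + CORT, from 2.59 to 5.70 CPM in αACBP + Vehicle and from 2.11 to 7.99 CPM in αACBP + CORT, so that all groups overlapped. Isotype + CORT replicate 2 had 0 counts of Ifit2. Its log2 fold changes were -1.10 (SE 0.62) with CORT under isotype and 1.20 (SE 0.62) with αACBP under CORT, neither of which was called (edgeR adjusted p = 0.422 and 0.447). Without the liver at 0 counts they were -0.78 and 0.88, and by voom they were -2.34 and 2.22, and none of these was called.

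Isg15 is a ubiquitin-like protein that is attached to other proteins during the interferon response, and Usp18 is the protease that removes it and also dampens signalling at the receptor. Isg15 (chr4:156283883-156285303, minus strand, GRCm39) measured 22.8, 16.3, 22.4, 20.2 and 15.5 CPM in Isotype + Vehicle and 3.08, 3.40, 8.97, 4.82 and 11.4 CPM in Isotype + CORT. In αACBP + Vehicle it measured 7.43, 22.7, 26.9, 13.2 and 7.24 CPM and in αACBP + CORT 17.7, 23.7, 13.9, 6.80 and 14.2 CPM. The Isotype + CORT livers all lay below the Isotype + Vehicle livers, but both αACBP groups spread across them. CORT under isotype lowered Isg15 by a factor of 3.06 (log2 -1.62, SE 0.39, edgeR adjusted p = 0.0219). The call was lost without Isotype + CORT replicate 1, 2 or 4, where edgeR's adjusted p was 0.0527, 0.0561 and 0.0557. αACBP under CORT gave a log2 fold change of 1.27 (SE 0.39) that was not called (edgeR adjusted p = 0.126). On the opposite strand, exons of Gm46878 cover 31.1% of the exon bases of Isg15. The strand setting of the counting is not given in the sources used here, and reads of these genes could not be separated in the covered part.

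Usp18 (chr6:121222848-121247877, plus strand, GRCm39) measured 13.7, 17.6, 20.9, 32.1 and 10.7 CPM in Isotype + Vehicle and 7.73, 1.60, 11.003, 4.37 and 4.32 CPM in Isotype + CORT. It measured 6.64, 26.0, 25.5, 17.6 and 17.9 CPM in αACBP + Vehicle and 11.8, 9.91, 18.03, 5.32 and 18.2 CPM in αACBP + CORT. Only the highest Isotype + CORT liver, replicate 3, exceeded the lowest Isotype + Vehicle liver, whereas αACBP + CORT replicates 2 and 4 lay among the Isotype + CORT livers. It fell by a factor of 3.27 with CORT under isotype (log2 -1.71, SE 0.44, edgeR adjusted p = 0.0350). The difference with αACBP under CORT was not called (log2 1.12, SE 0.44, edgeR adjusted p = 0.269). The CORT call of Usp18 was lost without Isotype + Vehicle replicate 2, 3 or 4 or Isotype + CORT replicate 2, 4 or 5, with edgeR adjusted p between 0.0568 and 0.0963. It was also lost with no filter (edgeR adjusted p = 0.0766) and by voom (adjusted p = 0.0791).

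Rsad2 codes for viperin, an enzyme of the endoplasmic reticulum and lipid droplets that makes a chain-terminating nucleotide. It (chr12:26492745-26506451, minus strand, GRCm39) measured 6.38, 8.38, 8.32, 12.2 and 7.91 CPM in Isotype + Vehicle and 4.31, 3.40, 2.62, 0.782 and 4.32 CPM in Isotype + CORT. αACBP + Vehicle livers measured 3.74, 3.16, 3.98, 1.87 and 4.39 CPM and αACBP + CORT livers 3.43, 6.24, 13.2, 6.51 and 4.86 CPM. Unlike Ifit3, Rsad2 was low in αACBP + Vehicle as well, and both of these low groups lay below every Isotype + Vehicle liver. CORT under isotype lowered it by a factor of 2.80 (log2 -1.48, SE 0.41, edgeR adjusted p = 0.0403). That call was lost without Isotype + Vehicle replicate 2, 3, 4 or 5 or Isotype + CORT replicate 2, 3 or 4, with edgeR adjusted p between 0.0584 and 0.107. It was also lost with only the groups compared (edgeR adjusted p = 0.0664) and with a replicate block (edgeR adjusted p = 0.0583). With αACBP under CORT the log2 fold change of 1.15 (SE 0.40) was not called (edgeR adjusted p = 0.185).

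Oasl2 and Oas1a belong to the 2′-5′-oligoadenylate synthetase family on chromosome 5, whose active enzymes make the messenger that switches on RNase L. Oasl2 (chr5:115034997-115050295, plus strand, GRCm39) measured 9.997, 11.6, 13.04, 26.0 and 18.2 CPM in Isotype + Vehicle and 6.43, 4.15, 11.4, 4.43 and 4.12 CPM in Isotype + CORT. The αACBP + CORT livers measured 11.8, 11.01, 21.5, 12.7 and 21.4 CPM, and αACBP + Vehicle livers lay between 9.27 and 21.0 CPM. Apart from Isotype + CORT replicate 3, all livers of that group lay below all others. Oasl2 fell by a factor of 2.58 with CORT under isotype (log2 -1.36, SE 0.32, edgeR adjusted p = 0.0136) and was 2.57-fold higher with αACBP under CORT (log2 1.36, SE 0.32, edgeR adjusted p = 0.0291). The first call was lost without Isotype + Vehicle replicate 4 (adjusted p = 0.0607). The second was lost without Isotype + CORT replicate 1, 2, 4 or 5 or αACBP + CORT replicate 3 or 5, with edgeR adjusted p between 0.0653 and 0.104. By voom neither was called (adjusted p = 0.0785 and 0.131). With only the groups compared, the second was not called (edgeR adjusted p = 0.0982).

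Oas1a (chr5:121031070-121046449, minus strand, GRCm39) had its highest group mean in αACBP + CORT, as did Ifit2. It measured 7.19, 6.31, 7.75, 4.49 and 9.83 CPM there and 0.957, 1.80, 4.22, 2.87 and 2.13 CPM in Isotype + CORT. Isotype + Vehicle livers measured 3.91, 5.69, 5.99, 3.44 and 2.40 CPM, and αACBP + Vehicle livers lay between 2.90 and 7.93 CPM. All αACBP + CORT livers lay above all Isotype + CORT livers, whereas the latter overlapped with Isotype + Vehicle. With CORT under isotype the log2 fold change was -0.84 (SE 0.41, edgeR adjusted p = 0.328) and with αACBP under CORT 1.57 (SE 0.42, edgeR adjusted p = 0.0619), and neither was called. Without Isotype + CORT replicate 3, the second value was 1.87 and was called (edgeR adjusted p = 0.0206). Of its 100-base words, 9.75% occur in other genes, Oas1g among them.

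Irf7, the transcription factor that amplifies interferon-α production, was the most abundant member. Isotype + Vehicle livers measured 56.6, 66.2, 87.5, 109 and 70.0 CPM and Isotype + CORT livers 29.1, 23.1, 65.6, 28.2 and 18.2 CPM (chr7:140842619-140846398, minus strand, GRCm39). The αACBP + Vehicle livers measured 113, 120, 108, 104 and 126 CPM, and αACBP + CORT livers 97.3, 68.8, 115, 82.1 and 97.3 CPM. Every αACBP + CORT liver lay above every Isotype + CORT liver, and the only Isotype + CORT liver within the range of Isotype + Vehicle was replicate 3. Irf7 fell by a factor of 2.37 with CORT under isotype (log2 -1.24, SE 0.25, edgeR adjusted p = 0.00477). Its level was 2.80-fold higher with αACBP under CORT (log2 1.49, SE 0.25, edgeR adjusted p = 0.00275). Both calls held without any of the livers compared. The second was lost with only the groups compared in the fit (edgeR adjusted p = 0.0505). Together with Ifit3 and Oas1a, Irf7 made up the 3 members whose Isotype + CORT and αACBP + CORT livers did not overlap, with αACBP + CORT higher, against 1.91% of all genes.

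Across members the counts of calls depended on single livers. With CORT under isotype, 3 members were called without Isotype + Vehicle replicate 4, Isotype + CORT replicate 2 or Isotype + CORT replicate 4, and between 4 and 6 without any other liver of these groups. With αACBP under CORT, 5 were called without Isotype + CORT replicate 3 and 2 or 3 without any other liver. The median log2 fold change stayed between -1.72 and -1.27 in the first comparison and between 1.19 and 1.72 in the second.

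**Figure D2:**
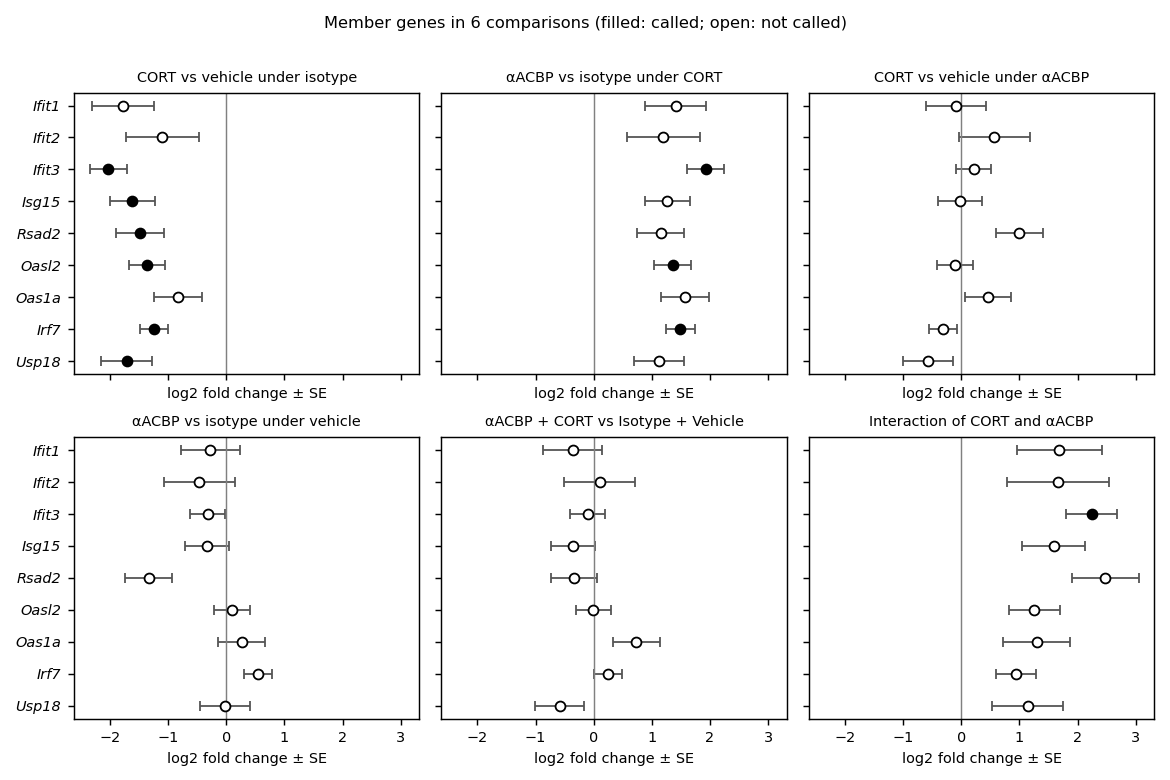
Log2 fold changes of the 9 members in 6 comparisons. Points are edgeR estimates (x axis, log2 fold change) for each gene (y axis), bars are ± 1 SE, filled points were called and open points were not. The 9 estimates lie below 0 with CORT under isotype and above 0 with αACBP under CORT, and those of the next 3 comparisons lie on both sides of 0.

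In αACBP-treated mice, CORT went with no called change of a member. By edgeR's quasi-likelihood test 0 of 9 were called, against 0.0436% of all genes called lower and 0.168% called higher, and DESeq2 and limma's voom called 0 as well. Rsad2 alone had an unadjusted p of 0.05 or less, which 12.7% of all genes had, with a log2 fold change of 1.00 (SE 0.40, edgeR adjusted p = 0.278). The median over the members was -0.02. The intervals were wide enough to hold sizeable differences, as for Ifit3 (log2 0.21, 95% interval -0.38 to 0.81) and Irf7 (log2 -0.31, 95% interval -0.78 to 0.17).

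Without CORT, the estimate farthest from 0 between αACBP and isotype was that of Rsad2, which missed the call. The αACBP + Vehicle livers had 3.43 ± 0.978 CPM of Rsad2 and the Isotype + Vehicle livers 8.64 ± 2.15 CPM, and they did not overlap (log2 -1.33, SE 0.40, edgeR adjusted p = 0.0503). Over all genes, 3.63% had αACBP + Vehicle livers that were all lower. Irf7 was 114 ± 9.07 against 77.8 ± 20.6 CPM (log2 0.55, SE 0.24, edgeR adjusted p = 0.186). These were the 2 members with an unadjusted p of 0.05 or less, against 20.6% of all genes. By edgeR 0 of 9 members were called, with 0.616% of all genes called lower and 0.684% called higher, whereas DESeq2 and voom each called 1 member, Rsad2. The median log2 fold change of the 9 members was -0.27.

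Mice given both CORT and αACBP were also set against Isotype + Vehicle mice. None of the 3 tools (edgeR, DESeq2 and voom) called any of the 9 members, while edgeR called 0.0311% of all genes lower and 0.0373% higher. No member had an unadjusted p of 0.05 or less, which 7.59% of all genes had. The median was -0.10, and the estimate farthest from 0 was that of Oas1a (log2 0.73, 95% interval -0.06 to 1.52), with 7.12 ± 1.96 CPM in αACBP + CORT and 4.29 ± 1.52 CPM in Isotype + Vehicle. For Usp18 the estimate was -0.59 (95% interval -1.42 to 0.25), with 12.6 ± 5.51 against 18.998 ± 8.25 CPM. These intervals do not show that the levels of both groups were alike.

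The interaction, the difference between the CORT effect under αACBP and that under isotype, tests directly whether the antibody changed the response to CORT. All 9 estimates were above 0, with a median of 1.59, and for 7 the unadjusted p was no larger than 0.05, against 10.6% of all genes. Ifit3 was called (log2 2.24, SE 0.44, edgeR adjusted p = 0.0312), as were 0.0996% of all genes in this direction. Rsad2 had the largest estimate of the members and was not called (log2 2.48, SE 0.57, edgeR adjusted p = 0.0533). Its CORT effect was -1.48 under isotype and 1.00 under αACBP, and its αACBP effect was -1.33 without CORT. No member was called without Isotype + Vehicle replicate 2 or 5, Isotype + CORT replicate 1 or 2, αACBP + Vehicle replicate 1 or 5, or αACBP + CORT replicate 2 or 3, and Ifit3 then had adjusted p between 0.0514 and 0.0680. Without Isotype + CORT replicate 3, 3 members were called, and without Isotype + CORT replicate 4 or 5 or αACBP + CORT replicate 5, 2 members were called.

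Per length of the canonical transcript, Irf7 and Isg15 stood at the top in Isotype + Vehicle, with 32.5 ± 8.60 and 24.8 ± 4.33 CPM per kb. Ifit3 followed with 14.9 ± 2.68, Usp18 with 10.7 ± 4.64 and Oasl2 with 5.05 ± 2.08 CPM per kb. Ifit1 had 3.66 ± 1.80, Rsad2 2.29 ± 0.569, Oas1a 2.24 ± 0.797 and Ifit2 1.11 ± 0.493 CPM per kb. Neighbours in this order overlapped in mean ± SD except Isg15 and Ifit3. In Isotype + CORT the same members led, with Irf7 at 13.7 ± 7.86, Isg15 at 8.10 ± 4.71 and Ifit3 at 3.63 ± 2.30 CPM per kb, and these neighbours overlapped.

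Within groups, the members did not vary as a single block. After the group mean was taken off the log2 CPM of each gene, the 36 pairs of members had correlations between -0.36 and 0.86 across the 20 livers, with a median of 0.33, and 12 pairs were above 0.5. Ifit3 and Usp18 made the most alike pair (r = 0.86), followed by Ifit3 and Oasl2 (r = 0.85) and Ifit3 and Irf7 (r = 0.80). Ifit3, Usp18, Ifit1, Oasl2 and Irf7 correlated with the mean of the other 8 members at 0.86, 0.85, 0.81, 0.74 and 0.65. For Isg15, Oas1a and Ifit2 this value was 0.43, 0.30 and 0.28, and for Rsad2 it was 0.11. The points share libraries and their depth, so that these values are descriptive. Isotype + CORT replicate 3 was the highest liver of its group for 7 of the 9 members and lay 1.04 log2 units above its group on average over the 8 members other than Ifit2. Over the same 8 members, replicates 2 and 4 of this group lay 0.48 and 0.50 below it. With Ifit2, whose 0 counts in replicate 2 take their log2 value from the prior count, replicate 3 lay 1.17 above and replicate 2 lay 1.01 below. In αACBP + CORT, replicate 3 was 0.52 above and replicate 4 was 0.60 below without Ifit2, and in αACBP + Vehicle, replicate 1 was 0.58 below.

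**Figure D3:**
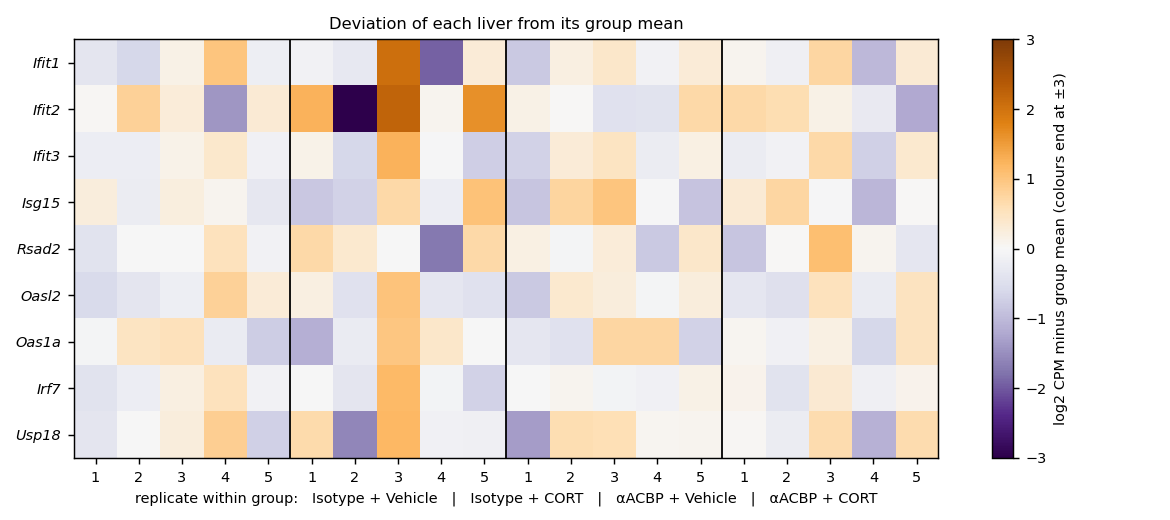
Deviation of each liver from its group mean. Columns are the 20 livers by group and replicate, rows are the 9 members, and colour gives log2 CPM minus the group mean, with colours ending at 3 in either direction. Isotype + CORT replicate 3 is above its group for 8 of the 9 members, and αACBP + CORT replicate 4 is below its group for 8.

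Among the genes whose deviations were most like the mean standardized deviation of the members, of 13863 genes with at least 1 CPM on average, were Xaf1 (r = 0.85), Tap1 (r = 0.85), Trim12c (r = 0.84), Apol9a (r = 0.80), Mup-ps16 (r = 0.80), Phf11d (r = 0.79) and Mx2 (r = 0.79), over 20 livers. Without Isotype + CORT replicates 3 and 2, the livers farthest from the median, r of these genes lay between 0.61 (Apol9a) and 0.80 (Mup-ps16). Xaf1, Tap1, Phf11d and Mx2 are on the list of other interferon-stimulated genes used here. Mup-ps16 is a pseudogene of the major urinary proteins, whose near-identical copies make its counts uncertain. The mean level of Apol9a was 126 CPM in Isotype + Vehicle, 34.8 CPM in Isotype + CORT, 149 CPM in αACBP + Vehicle and 97.4 CPM in αACBP + CORT. For each of these 7 genes the group mean was lowest in Isotype + CORT, and for Mup-ps16 it was also low in αACBP + CORT (25.3 and 28.1 CPM).

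The ligands of the pathway were not measurable at this depth. Of 20 interferon genes in the table, including Ifnb1 and the interferon-α genes, all had 0 counts in every liver except Ifnk and Ifng. Their totals over the 20 livers were 1 count for Ifnk and 20 counts for Ifng. These counts came only from Isotype + Vehicle replicates 2 and 5 and αACBP + CORT replicate 1. For Ifnb1, 0 counts allow a level of up to 0.201 CPM in the liver with the lowest total.

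No receptor or signal transducer was called. Of 15 tested, edgeR called 0 with CORT under isotype and 0 with αACBP under CORT, as did DESeq2 and voom. The unadjusted p was 0.05 or less for 6 and 5 of them, against 15.6% and 12.5% of all genes. Without Isotype + CORT replicate 4, edgeR called 1 in each of these comparisons. Ifnar1, a chain of the type I receptor, averaged 38.8 CPM in Isotype + Vehicle and 29.4 CPM in Isotype + CORT (log2 -0.40, SE 0.18, edgeR adjusted p = 0.255). Its partner Ifnar2 averaged 29.5 and 26.9 CPM (log2 -0.13, SE 0.19, edgeR adjusted p = 0.846). Among the ISGF3 genes, Irf9 passed the adjusted p but not the limit on the fold change, with 56.8 ± 7.43 CPM in Isotype + Vehicle, 35.6 ± 9.07 CPM in Isotype + CORT and 64.1 ± 11.8 CPM in αACBP + CORT. Its log2 fold change was -0.67 with CORT under isotype (SE 0.18, edgeR adjusted p = 0.0333) and 0.85 with αACBP under CORT (SE 0.18, edgeR adjusted p = 0.0141), and the Isotype + CORT livers overlapped with neither group. For Stat2 the log2 fold change was -0.14 with CORT under isotype (SE 0.20, edgeR adjusted p = 0.838) and 0.48 with αACBP under CORT (SE 0.20, edgeR adjusted p = 0.295).

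Nucleic acid sensors and the factors that induce interferon were not called either. With CORT under isotype, edgeR called 0 of 16, with 10 at an unadjusted p of 0.05 or less, against 15.6% of all genes. DESeq2 called 1 and voom 3 lower, and over all genes edgeR called 1.43% lower. The count by edgeR was 1 without Isotype + CORT replicate 1 or 2, 2 without Isotype + Vehicle replicate 1 and 3 without Isotype + CORT replicate 3. With αACBP under CORT, edgeR, DESeq2 and voom called 0 of 16. By edgeR, 5 were below that unadjusted p, against 12.5% of all genes, and 1 was called without Isotype + CORT replicate 3. The list medians were -0.52 and 0.44.

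Other interferon-stimulated genes were also lower with CORT and higher with αACBP under CORT. Of 58 tested, 12 fell with CORT under isotype and 0 rose, and 11 rose with αACBP under CORT and 0 fell. Over all genes, 1.43% were called lower in the first comparison and 0.504% higher in the second. The medians over the list were -0.80 and 0.63, against 0.00 and 0.01 over all genes tested. The 8 genes with the smallest p among those that fell were the small interferon-induced gene Ifi27l2a, the immunoproteasome subunit Psmb8, the apoptosis factor Xaf1, the oligoadenylate synthetases Oas2 and Oas1g, the Schlafen gene Slfn8, the sensor family gene Ifi207 and the helicase Ddx60. Ifi27l2a fell from 17.3 ± 4.05 to 5.83 ± 2.36 CPM with CORT (log2 -1.57, SE 0.29, edgeR adjusted p = 0.00206) and was 18.8 ± 5.14 CPM in αACBP + CORT (log2 1.68, SE 0.29, edgeR adjusted p = 0.00333). Slfn8 had the largest fall of these 8 genes, from 6.68 ± 2.84 to 2.01 ± 0.867 CPM (log2 -1.73, SE 0.38, edgeR adjusted p = 0.00950). Xaf1 fell from 19.2 ± 7.11 to 6.17 ± 4.14 CPM (log2 -1.63, SE 0.34, edgeR adjusted p = 0.00786). Among the genes that rose with αACBP under CORT, the 8 with the smallest p were Oas2, Ifi27l2a, the ADP-ribosyltransferase Parp14, the antiviral GTPase Mx1, Slfn8, the peptide transporter Tap1, Oas1g and Psmb8. Mx1 was 2.04 ± 1.91 CPM in Isotype + CORT and 10.6 ± 4.35 CPM in αACBP + CORT (log2 2.36, SE 0.43, edgeR adjusted p = 0.00660). Oas2 was 10.6 ± 5.86 and 50.1 ± 20.8 CPM (log2 2.23, SE 0.33, edgeR adjusted p = 0.00173). The count of 11 changed to 6 without Isotype + CORT replicate 1 or αACBP + CORT replicate 3 and to 7 without αACBP + CORT replicate 5. Without Isotype + CORT replicate 3 the counts were 17 and 16.

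In the remaining comparisons, edgeR called 0 of the 58 genes with CORT under αACBP, 0 with αACBP under vehicle and 0 with αACBP + CORT against Isotype + Vehicle. In the same order, 8, 9 and 4 had an unadjusted p of 0.05 or less, against 12.7%, 20.6% and 7.59% of all genes. DESeq2 and voom each called 1 higher with CORT under αACBP and 0 in the others. The interaction called Ifi27l2a (log2 1.92, SE 0.40, edgeR adjusted p = 0.0449), and 0.0996% of all genes were called in this direction. Of the 58 estimates, 55 were above 0, whereas 47.5% of all genes had an estimate below 0. The 58 estimates come from the same livers, so that their signs are not separate observations.

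**Figure D4:**
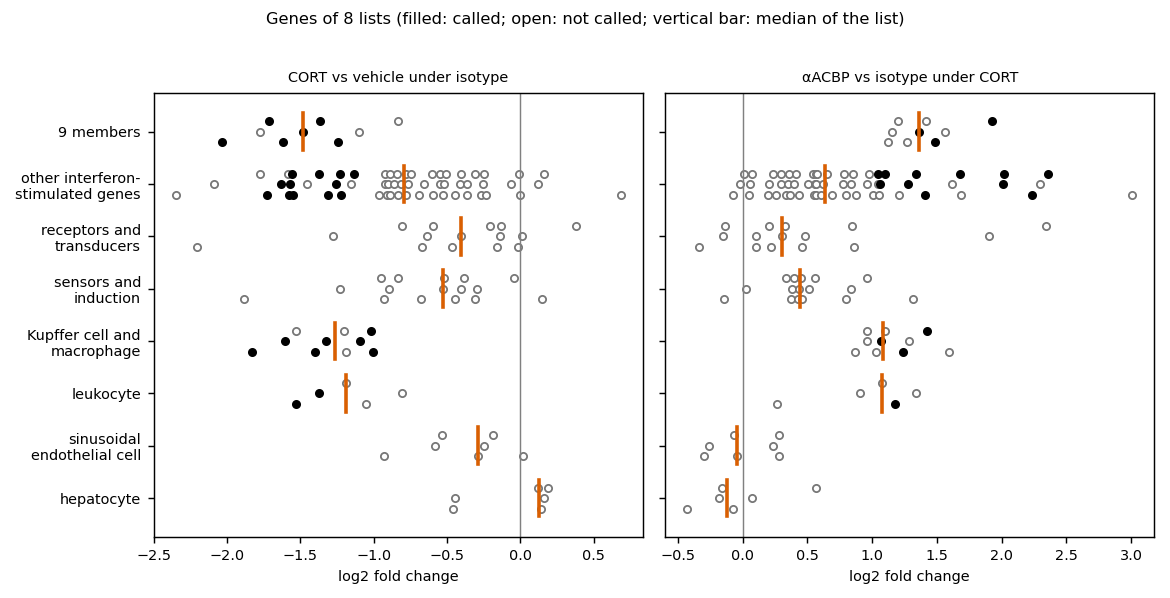
Log2 fold changes of 8 gene lists in 2 comparisons. Each point is a gene (x axis, edgeR log2 fold change) in its list (y axis), filled points were called, and the vertical bar is the median of the list. The medians of the 9 members are -1.48 and 1.36, those of the Kupffer cell and macrophage markers -1.26 and 1.09.

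Kupffer cell and macrophage markers were also lower with CORT under isotype and higher with αACBP under CORT. In bulk liver, fewer cells of a type and less RNA per cell cannot be told apart. Of 10 Kupffer cell and macrophage markers, 7 were called lower with CORT under isotype (Clec4f, Vsig4, Cd5l, Timd4, Csf1r, C1qa and C1qc), against 1.43% of all genes. With αACBP under CORT, 3 were called higher (Clec4f, Csf1r and C1qa), against 0.504% of all genes. The summed level of the 10 markers was 464 to 921 CPM in Isotype + Vehicle, 155 to 452 CPM in Isotype + CORT, 591 to 985 CPM in αACBP + Vehicle and 591 to 819 CPM in αACBP + CORT, and no defining marker was at 0 over a whole group. Isotype + CORT replicate 3, the liver with the highest members of its group, also had the highest sum of these markers (452 CPM), and replicate 2 the lowest (155 CPM). In αACBP + Vehicle, replicate 3 was highest in both sums (256 CPM for the members and 985 CPM for the markers). The other groups differed. In Isotype + Vehicle, replicate 4 had the highest sum of the members (294 CPM) and replicate 5 that of the markers (921 CPM). In αACBP + CORT, replicate 3 had the highest sum of the members (272 CPM) and the lowest of the markers (591 CPM). Replicate 4 there had the lowest sum of the members (148 CPM) with 792 CPM of the markers. C1qa, a complement component made by macrophages, fell from 90.3 ± 32.8 to 34.2 ± 7.60 CPM (log2 -1.40, SE 0.25, edgeR adjusted p = 0.00182). The count of 7 changed to 2 without Isotype + Vehicle replicate 2, to 3 without Isotype + Vehicle replicate 5 or Isotype + CORT replicate 1 or 2, and to 4 without Isotype + Vehicle replicate 4. The count of 3 changed to 5 without Isotype + CORT replicate 3. DESeq2 called 9 lower with CORT and 6 higher with αACBP, and voom called 6 and 6.

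General leukocyte markers, 5 in number, summed to 55.9 to 94.5 CPM in Isotype + Vehicle, 18.97 to 51.4 CPM in Isotype + CORT, 50.006 to 99.6 CPM in αACBP + Vehicle and 55.9 to 77.5 CPM in αACBP + CORT. Their median log2 fold change was -1.19 with CORT under isotype and 1.08 with αACBP under CORT. Plasmacytoid dendritic cell markers, those of a main source of type I interferon, were close to the floor, with sums over 6 genes of 2.11 to 5.76 CPM in Isotype + Vehicle and 0 to 1.71 CPM in Isotype + CORT, where 2 of the 6 were at 0 in all livers. Markers of these cells, monocytes, T and NK cells and B cells (3, 3, 7 and 5 tested) gave no call by edgeR in either main comparison. In this order, 1, 2, 2 and 4 were at an unadjusted p of 0.05 or less with CORT, against 15.6% of all genes. With αACBP these counts were 1, 0, 1 and 0, against 12.5% of all genes. DESeq2 called 1 plasmacytoid dendritic cell marker and 1 T and NK cell marker lower with CORT. The 5 B cell markers had a median log2 fold change of -2.10 with CORT under isotype, 0.15 with αACBP under CORT and -1.43 with CORT under αACBP, and the medians of their summed level were 21.8 CPM in Isotype + Vehicle, 3.95 CPM in Isotype + CORT, 24.9 CPM in αACBP + Vehicle and 5.91 CPM in αACBP + CORT. Of 3 neutrophil markers tested, edgeR called Csf3r lower with CORT under isotype (log2 -1.08, SE 0.27, edgeR adjusted p = 0.0268). For 6 hepatocyte and 7 sinusoidal endothelial markers, edgeR, DESeq2 and voom called 0 in both main comparisons. By edgeR, 0 and 2 were at an unadjusted p of 0.05 or less with CORT, against 15.6% of all genes. With αACBP these counts were 1 and 0, against 12.5% of all genes. With CORT under isotype, 6 of the 7 endothelial markers had estimates below 0 (median log2 -0.29). Of these markers, 1 passed the adjusted p but not the limit on the fold change. The part of immune cell content in the lower and higher levels of the members was not tested.

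**Figure D5:**
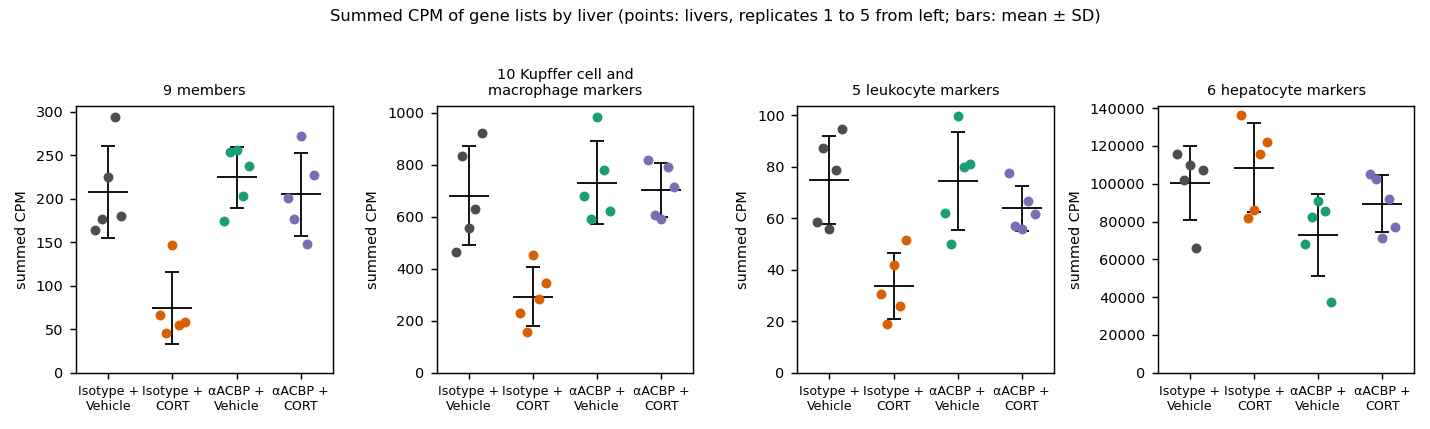
Summed CPM of the 9 members and of markers of 3 cell types by liver. The y axes give the sum of CPM over the genes of a list, from 0, for the 4 groups on the x axis; points are livers and bars the mean ± SD of 5. Isotype + CORT livers lie between 46.1 and 147 CPM for the members and between 155 and 452 CPM for the Kupffer cell and macrophage markers, below all livers of the other groups in both panels. The margins are small, since the lowest livers of the other groups are at 148 CPM (αACBP + CORT replicate 4) and 464 CPM (Isotype + Vehicle replicate 1).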

How the data were processed

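RNA was measured in 20 mouse livers, 5 in each of 4 groups taken from the labels. The authors aligned paired-end reads with HISAT2 and assigned pairs to genes by HTSeq-count (union mode, non-unique features included), and they deposited raw counts per gene. The genome is GRCm39 in the study's methods and mm10 in the submitters' processing notes, and the annotation release and the strand setting are not given in the sources used here. Between 59.6% and 63.4% of the entries of a liver were on no single gene and were left out of library sizes and tests.

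Counts were normalized by TMM and tested with edgeR 4.0.16 (R 4.3.3) using its quasi-likelihood test with robust dispersion over 16071 genes kept by filterByExpr, in 1 model of all 4 groups with 5 contrasts and the interaction. P-values were adjusted by the Benjamini-Hochberg method over all genes tested. Log2 CPM used a prior count of 0.5. DESeq2 1.42.0 and voom with quality weights of limma 3.58.1 were alternatives, as were other scalings, filters, calls, sample sets, a replicate block and leaving out each liver. Gene spans came from GENCODE M39 on GRCm39, and canonical transcript lengths gave CPM per kb. Promoter windows came from RefSeq on GRCm38.p6.

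The members and gene lists were chosen with earlier results of these data known. Named genes are all members, up to 8 called genes of a list with the smallest p, the receptor and ISGF3 genes, and the 8 genes most like the members, and some genes that this rule names are not reported here. Ifit3b and Csf3r were named after their values were seen. No column of the table was left unused.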

Additional observations from a re-analysis of the deposited data

Results flagged for a closer look

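On the log2 scale, the lowest liver stood apart from the other livers of its group for 2 members. Ifit2 was 0 CPM in Isotype + CORT replicate 2, whereas the other livers of this group had 1.11 to 4.97 CPM. Usp18 was 6.64 CPM in αACBP + Vehicle replicate 1, against 17.6 to 26.0 CPM in the others. On the log2 CPM scale, the gap to the nearest liver divided by the range of the group was 0.713 and 0.715, above Dixon's critical value of 0.71 for 5 samples. On the CPM scale it was 0.223 and 0.568, below that value, and the log2 value of the liver at 0 counts is set by the prior count of 0.5. There were 36 such checks, and chance gives about 1 in 20 groups.

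The CORT effect on Ifit3 differed between αACBP and isotype by 2.24 on the log2 scale in edgeR's interaction test (SE 0.44, adjusted p = 0.0312).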

How the results depend on the processing

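With CORT under isotype, 6 members were called, and 3 to 6 when 1 liver was left out. This count became 7 with DESeq2's Wald test or an unadjusted p and the fold limit, and 5 with no filter, only the groups compared or voom. With αACBP under CORT the 3 calls became 5 with DESeq2's Wald test, 8 with an unadjusted p and the fold limit and 1 (Ifit3) with only the groups compared. They became 4 with at least 10 counts in every liver, 2 with voom, and 2 to 5 when 1 liver was left out. With αACBP under vehicle the count of 0 became 1 (Rsad2) with library sizes without the 20 most abundant genes, DESeq2's Wald test, at least 10 counts in every liver, an unadjusted p, only the groups compared, or voom. The interaction count of 1 became 2 with DESeq2's Wald test, no filter or at least 10 counts in every liver, 6 with an unadjusted p, and 0 to 3 when 1 liver was left out. Among the other interferon-stimulated genes, voom called 5 with CORT under isotype and 6 with αACBP under CORT, where edgeR called 12 and 11, and the interaction called 5 with DESeq2 and 1 with edgeR. Voom was chosen after seeing the data. The cause of these changes was not tested.

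Estimates near 0 changed sign. Isg15 with CORT under αACBP was 0.0412 with the replicate block. By voom, Usp18 with αACBP under vehicle was 0.14, and Ifit2 and Oasl2 in αACBP + CORT against Isotype + Vehicle were -0.12 and 0.0696. When 1 liver was left out, the log2 fold change with αACBP under vehicle was -0.0239 to 0.36 for Oasl2, -0.17 to 0.25 for Usp18 and -0.41 to 0.0617 for Ifit1. In αACBP + CORT against Isotype + Vehicle it was -0.12 to 0.31 for Ifit2, -0.31 to 0.0421 for Ifit3 and -0.15 to 0.25 for Oasl2. With CORT under αACBP it was -0.24 to 0.27 for Isg15 and -0.31 to 0.10 for Ifit1. Ifit2 had no value at 10 counts in every liver.

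Livers with the same replicate number did not deviate together (r between -0.09 and 0.08, 0 of 30 pairs over 0.1), and 3 of 20 livers correlated best with their own number. With the replicate block, 6 members were called with CORT under isotype, where Ifit1 was gained (log2 -2.11, edgeR adjusted p = 0.0259) and Rsad2 was lost (log2 -1.55, edgeR adjusted p = 0.0583), 3 with αACBP under CORT and 1 in the interaction.

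Depth limits Ifit2, Oas1a and Rsad2 most, which had few CPM in Isotype + CORT, and the interferon genes, which were at or near 0 counts.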
